A study of Mus musculus with 16 samples.

Results

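H3K27me3, the trimethylated lysine 27 of histone H3, was compared between B cells of wild-type (WT) mice and of mice mutant for 3 cytosolic nucleic acid sensors, both kept in the solvent DMSO without inhibitor. The comparison used the broad peaks of 2 deposited lists, 1 per genotype, on chromosomes 1 to 19, which gave 87554 of the 112048 peaks in the 4 lists of the study. A protein-coding gene belonged to the comparison when at least 1 base of its GRCm38 gene body, from the first to the last annotated base with introns, lay in a peak of either list. That held for 7488 of 20665 genes. The cells were splenic B cells of C57BL/6 mice, 6 to 8 weeks old, isolated by magnetic sorting with CD43 beads. Both genotypes spent 48 hours in culture with DMSO, BAFF and IL-4. The mutant is labelled as an Ifih1/Rigi/cGAS triple mutant, and the labels used here do not describe the alleles. The GSK343 lists, from cells given the EZH2 inhibitor GSK343 at 1 µM in the same culture, served only as a further readout. Each group had 2 ChIP and 2 input samples, so the DMSO groups account for 8 of 16 samples.

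H3K27me3 is deposited by Polycomb repressive complex 2, whose catalytic subunit is usually EZH2. The mark lies over silent developmental genes and over genes of other lineages, either as a short peak at a promoter or as a domain that spreads over a whole gene and its neighbours. The 3 mutated genes encode MDA5 (Ifih1) and RIG-I (Rigi, listed under its older symbol Ddx58), which bind viral and cellular RNA, and cGAS (Cgas), which binds DNA in the cytosol. All 3 lead to type I interferon.

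Each group had only 1 list, so no spread between replicates exists, no test was run, and every difference describes these lists alone. The peak names refer to pooled duplicates, but the prefix in the mutant list ends in 1, which could mean replicate 1 alone. Read depth is unknown from the files. It may differ between the lists: among peaks with a fold over background of 2.9 to 3.1, the median −log10 p-value was 5.46 in WT (1501 peaks) and 6.12 in the mutant (1033 peaks), so the same fold carried a smaller p-value in the mutant list. The part of this difference in the results was not tested. Peak numbers run in order along each list with gaps, and the file names refer to peaks removed as blacklisted. These gaps made 408 stretches between neighbouring peaks in WT and 475 in the mutant, touching 1621 and 1574 genes, and a gene in such a stretch can be without a peak for that reason.

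Marker genes of B cells carried no peak in either list, 0 of 8, among them Ms4a1, Cd79a, Cd79b, Pax5, Ebf1, Cd22 and Blk. The same markers of other cells were covered in both lists, with 5 of 8 for T cells (Bcl11b, Cd3e, Cd3g, Cd4 and Gata3), 1 of 4 for NK cells, 3 of 6 for myeloid cells, 3 of 5 for erythroid cells and 2 of 3 for plasma cells. Of the mutated genes, Ifih1 (chr2:62595618-62646255) and Ddx58 (chr4:40203777-40239825) had no peak in either list. Cgas (chr9:78430518-78443237) was covered over 88.7% of its body in WT and 90.5% in the mutant, and its strongest peak had a fold of 3.24 and 3.79. Ezh2 had no peak in either list and touched skipped peak numbers in both. Peaks of H3K27me3 do not report on the mutations, so the genotype labels were not checked by them.

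The mutant list covered more of the genome, mostly next to WT peaks and in small peaks of its own. It held 48321 peaks over 132 Mb with a median width of 1140 bp, and the WT list 39233 peaks over 83.9 Mb with a median width of 936 bp, a ratio of covered length of 1.58. Both lists shared 72.8 Mb, which was 86.9% of the WT length and 55.1% of the mutant length. Of the 59.3 Mb that only the mutant list covered, 12.02 Mb filled gaps between WT peaks that a mutant peak spanned, 25.4 Mb lay beyond the edges of WT peaks, and 21.9 Mb lay in peaks that touched no WT peak. The WT list covered 11.0 Mb outside mutant peaks, made up of 1.04 Mb in gaps, 4.92 Mb beyond edges and 5.07 Mb in untouched peaks. The mutant list thus had more of each kind.

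**Figure D1:**
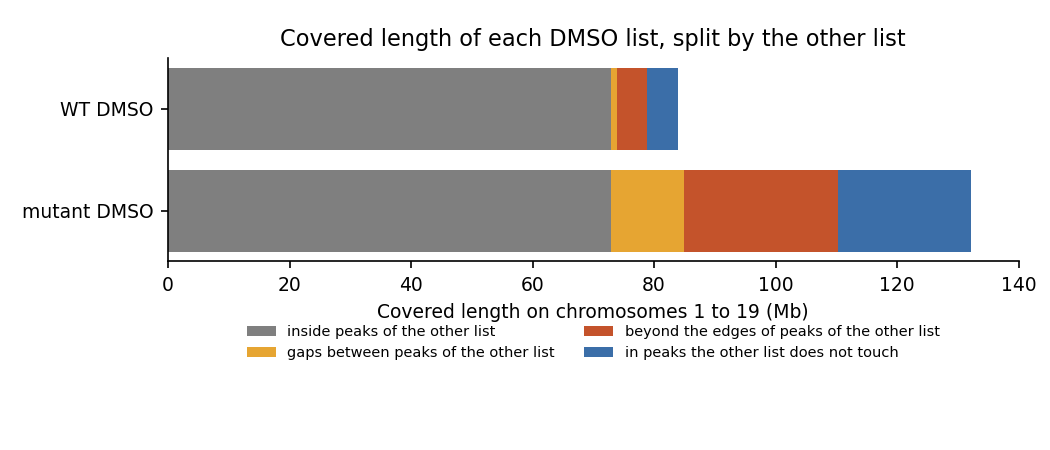
Covered length on chromosomes 1 to 19 (horizontal axis, Mb) of the WT DMSO and mutant DMSO lists, split by its position relative to peaks of the other list. The shared 72.8 Mb is the same in both bars, and the mutant bar is longer in all 3 other kinds.

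Joined peaks were more common in the mutant list. There, 5625 peaks each touched several WT peaks, 14311 WT peaks in all and up to 17 under a single mutant peak. In the WT list, 954 peaks each touched several mutant peaks, up to 4. Peaks without a counterpart were small and weak in both lists: the 24846 untouched mutant peaks had a median width of 680 bp and a median fold of 2.25, against 2778 bp and 2.49 for touched ones. The 8057 untouched WT peaks had a median width of 464 bp and a fold of 2.37, against 1223 bp and 2.52. Within protein-coding genes the covered length was 37.4 Mb in WT and 55.3 Mb in the mutant, a ratio of 1.48, and outside them 46.4 and 76.8 Mb, a ratio of 1.66.

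Most marked genes were marked in both genotypes. Peaks covered 32.6% of the 20665 genes in WT and 35.1% in the mutant. Both lists covered 6496 genes (31.4%, 95% Wilson interval 30.8 to 32.1%), and neither covered 13177. The mutant list alone covered 757 genes, 3.66% of all genes (3.42 to 3.93%), and the WT list alone covered 235, or 1.14% (1.00 to 1.29%). These intervals cover counting only. Genes covered in 1 genotype held little of the mark: the median covered length was 690 bp in mutant-only genes and 478 bp in WT-only genes, and 520 of 757 and 186 of 235 had under 1 kb. Genes covered in both had medians of 3292 bp in WT and 4612 bp in the mutant. The median of each gene's strongest fold was 2.31 for mutant-only and 2.42 for WT-only genes, against 3.30 in WT and 3.51 in the mutant for genes covered in both. Few genes took their call from a peak shared with another such gene, 34 of the mutant-only and 15 of the WT-only genes.

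The mutant-only genes with the most covered bases held stretches of a few kilobases, most of them in several weak peaks. A2ml1 (chr6:128539822-128581606), a protease inhibitor of the macroglobulin family, had 10089 bp covered in 7 mutant peaks, 24.1% of its body, with a strongest fold of 2.69. Its neighbour Pzp, a macroglobulin made by the liver, had 8765 bp in 6 peaks (20.3%), and both had 0 in WT and in both GSK343 lists. Lyg1, a g-type lysozyme, had 5636 bp (51.1%). Obp2b, an odorant-binding protein, had 4686 bp, Trpv1, the heat- and capsaicin-gated channel of sensory neurons, 4319 bp (15.9%), and Rmdn2 4153 bp (3.90%). Itpr2, a calcium channel of the endoplasmic reticulum, had a single peak of 4399 bp over 1.117% of its long body. These genes, from A2ml1 to Itpr2, had folds of at most 2.78 and no coverage under GSK343. Hrh3 (chr2:180099465-180104484), a histamine receptor of neurons, stood apart: it was covered in full by a 24.6 kb mutant peak of fold 4.05. The WT list skips a peak number there, and the WT GSK343 list covered 100% and the mutant GSK343 list 90.9% of the gene. Hykk (4592 bp) touched skipped numbers in both lists.

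The largest WT-only genes lay where the mutant list skips peak numbers. Of the 10 WT-only genes with the most covered bases, 9 touched such a stretch: Gm8909 (23693 bp, 95.6%), Cgn (14433 bp, 52.2%), Cfap300, Zic5, Nrbp2, Cabp2, Zic2, H2-T3 and Gm10499. Zic2 and Zic5, neighbouring zinc-finger factors of the developing brain, lay under a 55.5 kb WT peak of fold 3.99 and were covered in full in WT. In the mutant GSK343 list Zic2 was covered over 100% and Zic5 over 57.5% of its body, so the mark was called there in mutant cells under inhibitor. Cgn encodes cingulin of tight junctions, and Cabp2 a calcium-binding protein of hair cells. Over all WT-only genes, 37 of 235 (15.7%) touched mutant skipped numbers, against 7.62% of all genes, and the mutant GSK343 list covered 18 of these 37. It covered 1 of the other 198, whose median covered length was 434 bp. Of the mutant-only genes, 59 of 757 (7.79%) touched WT skipped numbers, against 7.84% of all genes, and the WT GSK343 list covered 4 of the 59 and 9 of the other 698. Without genes at skipped numbers in either list, 683 genes were mutant-only and 191 WT-only.

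Ren1 (chr1:133350674-133360320), which encodes renin, the enzyme that starts the angiotensin cascade, was the only WT-only gene of the first 10 without a skipped number. A WT peak of 15.9 kb and fold 3.497 covered 99.0% of it, 9551 bp, and the mutant list had no base there. The GSK343 lists pointed the same way, with 38.9% covered in WT and 0 in the mutant. Its neighbour Kiss1, the kisspeptin gene, was covered in both DMSO lists, over 67.2% in WT and 43.2% in the mutant, and over 31.2% and 13.7% under GSK343. The next WT-only genes without a skipped number were far smaller in covered length. They were St7 with 3175 bp (1.27%), Smco3 with 2683 bp (48.6%), the steroid enzyme gene Hsd17b6 with 2029 bp (12.1%), and 4930571K23Rik with 1893 bp (87.9%). Those after them lay between 1595 and 1845 bp: Atp6v1e2, Pbld1, Caps2, Mst1 and Gbp2b, an interferon-inducible GTPase. This second list was drawn up after the values were seen. Smco3 lies inside BC049715, so the same WT peak counts for both.

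Promoter sequences are shown for 5 of these genes in which a peak reached the annotated start in 1 list only: A2ml1 and Hrh3 by the mutant list, Gm8909 and Cgn by the WT list, and Ermn, described below, by the mutant list. CpG-rich promoters are the usual sites of Polycomb recruitment, so the CG dinucleotides, which read the same on both strands, are in capitals. The letters are the 250 bases before the start in the RefSeq table of GRCm38.p6, 5′ to 3′ on the strand of the gene, which is the minus strand for all 5: chr6:128581607-128581856 for A2ml1, chr2:180104408-180104657 for Hrh3, chr17:36168538-36168787 for Gm8909, chr3:94786483-94786732 for Cgn and chr2:58052865-58053114 for Ermn. For Hrh3, Gm8909 and Cgn that start lies inside the gene body used here, so the stretch overlaps the body in part or, for Cgn, in full.
A2ml1: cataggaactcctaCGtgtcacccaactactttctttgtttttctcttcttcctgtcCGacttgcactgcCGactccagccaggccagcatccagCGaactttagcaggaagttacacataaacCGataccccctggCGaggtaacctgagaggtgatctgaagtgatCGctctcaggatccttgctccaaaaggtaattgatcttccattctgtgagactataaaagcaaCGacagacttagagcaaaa
Hrh3: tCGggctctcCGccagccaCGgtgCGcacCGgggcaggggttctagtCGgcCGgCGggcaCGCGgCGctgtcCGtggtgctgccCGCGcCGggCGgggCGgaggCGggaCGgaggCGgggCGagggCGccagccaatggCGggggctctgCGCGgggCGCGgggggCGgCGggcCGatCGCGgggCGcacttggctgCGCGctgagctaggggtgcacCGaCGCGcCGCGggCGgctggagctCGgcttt
Gm8909: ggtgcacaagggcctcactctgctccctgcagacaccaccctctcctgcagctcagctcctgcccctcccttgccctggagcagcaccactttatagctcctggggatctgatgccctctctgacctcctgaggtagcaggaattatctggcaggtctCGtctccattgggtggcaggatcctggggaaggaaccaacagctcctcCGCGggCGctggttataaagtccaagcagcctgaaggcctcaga
Cgn: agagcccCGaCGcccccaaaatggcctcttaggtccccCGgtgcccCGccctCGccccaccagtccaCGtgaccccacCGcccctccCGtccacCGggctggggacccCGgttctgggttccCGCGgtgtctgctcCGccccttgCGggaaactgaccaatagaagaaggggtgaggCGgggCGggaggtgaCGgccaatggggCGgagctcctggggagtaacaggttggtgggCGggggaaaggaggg
Ermn: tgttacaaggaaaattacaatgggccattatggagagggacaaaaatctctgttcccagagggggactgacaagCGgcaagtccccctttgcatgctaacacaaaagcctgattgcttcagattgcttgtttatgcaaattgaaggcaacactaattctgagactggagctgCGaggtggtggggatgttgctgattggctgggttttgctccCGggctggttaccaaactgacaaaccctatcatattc
They hold 8, 42, 4, 19 and 3 CG dinucleotides in this order, with GC contents of 47.2%, 80.8%, 60%, 70.4% and 47.2%. Over the 16457 genes matched in that table the median was 10, and 93.0% held at least 1. Hrh3 and Cgn lay above that median, and A2ml1, Gm8909 and Ermn below it. Hrh3 touched WT skipped numbers, Gm8909 mutant skipped numbers and Cgn both, so their missing peak in the other list may come from that. The 5 examples therefore do not tell how rich in CG the promoters of mutant-only and WT-only genes were. A comparison of promoters between all genes of each kind was void, because only 79.6% of all genes, 76.1% of those covered in both and 77.0% of WT-only genes had a sequence in the table.

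Genes covered in both lists had a larger covered share in the mutant. The share was higher in the mutant for 5084 of 6496 genes (78.3%), lower for 856 and equal for 556, of which 547 were covered in full in both. The median gene went from 13.3% covered in WT to 21.4% in the mutant, and the median difference was 3.0 percentage points (quartiles 0.129 and 10.9). A share at least 10 points higher was found in 1764 genes, 27.2% of those covered in both, and at least 10 points lower in 99, or 1.52%. At this limit, Marco (10.0043 points) and Dgcr6 (10.0085) were just inside and Gm9631 (9.99) and Mertk (9.98) just outside among genes higher in the mutant. Among genes lower in the mutant, Esm1 (−10.1) and Gpr179 (−10.2) were just inside and Leprotl1 (−9.80) and Alox12b (−9.73) just outside.

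**Figure D2:**
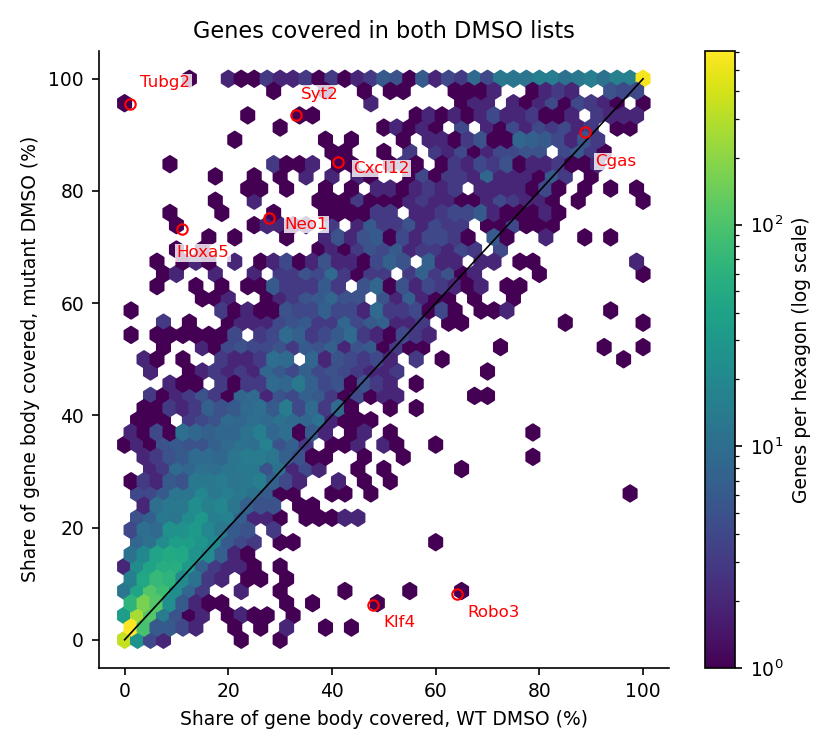
Share of the gene body covered by peaks in WT DMSO (horizontal axis, %) and mutant DMSO (vertical axis, %) for the 6496 genes covered in both lists, as hexagons coloured by the number of genes on a log scale, with 8 genes circled. Most genes lie above the diagonal of equal shares, and Klf4 and Robo3 lie far below it.

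Genes covered in part in WT carried the difference. Genes with a WT share over 10 and up to 50% had a median difference of 9.26 points, and 1060 of 2227 (47.6%) were at least 10 points higher. Those over 50 and up to 90% had a median of 11.5 points, with 420 of 743 (56.5%) at least 10 points higher. Genes with a WT share of at most 1%, which were long genes with a median of 236 kb, differed by a median of 0.270 points. Genes over 90% differed by a median of 0, since most were already full. This ordering is bounded by the scale, as a share cannot exceed 100%.

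**Figure D3:**
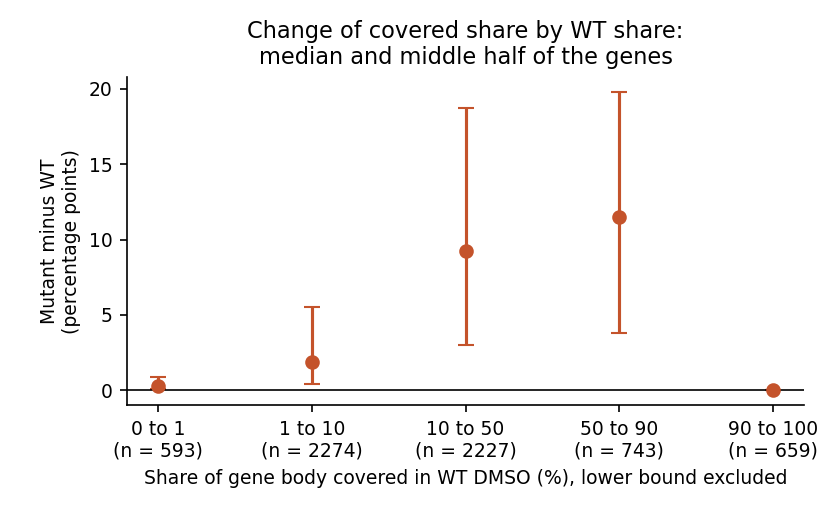
Difference in covered share, mutant minus WT (vertical axis, percentage points), for genes covered in both lists grouped by their WT share (horizontal axis, %); points are medians and bars run from the lower to the upper quartile of the genes. The median is 9.26 and 11.5 points for genes over 10 to 50% and over 50 to 90% covered in WT, and near 0 at both ends.

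In genes with higher shares the widest peak was mostly wider in the mutant, and the number of peaks went both ways. Among the 1764 genes at least 10 points higher, the number of peaks was lower in the mutant for 571, equal for 565 and higher for 628, with a median of 3 in both lists. The widest peak over the gene was wider in the mutant for 1690 of them, with medians of 4.89 kb in WT and 8.95 kb in the mutant. Over all 6496 genes covered in both, the widest peak was wider in the mutant for 5605. For these 6496 genes the number of peaks was lower in the mutant for 1169, equal for 3420 and higher for 1907. Its median was 1 in WT and 2 in the mutant. The 1764 genes were selected for a larger covered share, which itself favours wider peaks. Syt2 (chr1:134646534-134753149), a synaptotagmin that senses calcium at synapses, had 19 WT peaks, the widest of 12.7 kb, over 33.1% of its body, and 5 mutant peaks, the widest of 69.6 kb, over 93.5%. Neo1 (chr9:58874679-59036614), a receptor of axon guidance, had 27 WT peaks over 27.9% and 19 mutant peaks over 75.2%. In both genes the mutant peaks were fewer and wider. These 2 genes were chosen after their values were seen, although the rule for gene lists also names Neo1. Of the 1764 genes, 1183 had no neighbour among them and 225 lay in runs of 3 or more, and the longest run was 8 overlapping Pcdhg genes on chromosome 18.

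Among genes of at least 5 kb, the 10 whose share was higher in the mutant by the most were 5.43 to 8.34 kb long. Tubg2 (chr11:101155874-101161787), a γ-tubulin, was covered over 1.07% in WT, where a 9.57 kb peak reached its end, and over 95.5% in the mutant, where the peak was 28.3 kb wide. S100a7a, an antimicrobial S100 protein of skin, had 12.5% in WT and 100% in the mutant, LOC666331 21.1% and 100%, and Wfdc15b, a WAP-domain gene, 8.78% and 84.6%. Trim10, a red cell ubiquitin ligase, had 22.3% and 89.9%, and Vps37d, of the ESCRT machinery, 8.03% and 75.6%. Ermn, a cytoskeletal protein of myelinating cells, had 29.2% and 96.7%, and the mutant peak, but no WT peak, reached its start, shown above. Cyp17a1, the steroid 17-hydroxylase, had 16.7% and 82.9%, Pex11a, of peroxisome division, 33.9% and 100%, and Gm11634 37.7% and 100%. Of these 10 genes, Tubg2 alone had coverage in the mutant GSK343 list (7.102%) and Pex11a alone in the WT GSK343 list (3.76%).

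Lower shares in the mutant were rarer and lay in shorter genes, with a median length of 4.80 kb against 17.8 kb for the 1764 higher ones. Klf4 (chr4:55527137-55532475), a pluripotency and differentiation factor, had 48.0% in WT (fold 3.31) and 6.26% in the mutant (fold 2.53) with no skipped number. Under GSK343 it had 31.8% in WT and 0 in the mutant. Robo3 (64.1% and 8.11%), an axon guidance receptor, and Gdnf (39.0% and 3.37%), a neurotrophic factor, touched mutant skipped numbers, and the mutant GSK343 list covered 16.2% and 22.3% of them, more than the mutant DMSO list. Plcd3 (27.4% and 3.45%) touched skipped numbers in both lists. The others were Oas1d (37.3% and 6.15%), Cstdc2 (85.3% and 57.1%), BC049715 (31.7% and 4.00%), Kiss1, 2200002J24Rik (25.7% and 3.07%) and the protease-activated receptor F2rl2 (30.4% and 9.13%). In all, 11 of the 99 genes touched mutant skipped numbers, against 240 of the 6496 genes covered in both (3.69%).

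Nucleic acid sensor and interferon genes gave a mixed picture, in small counts to be read against 3.66% mutant-only and 1.14% WT-only among all genes. Of 26 genes of cytosolic and endosomal sensing, 4 were covered in both lists and 3 in the mutant alone, namely Oas1a (5.6%), the interferon regulator Irf7 (19.1%) and the endosomal RNA sensor Tlr3 (1.4%). Aim2, a DNA sensor, was the only one at least 10 points higher, at 30.2% and 40.9%. Of 21 interferon genes, 12 were covered in both, 8 of them in full. Ifnb1 (43.6%) and Ifna12 (30.5%) were covered in WT alone and Ifnl2 (43.7%) and Ifna14 (75.4%) in the mutant alone. Ifna6 was higher in the mutant (37.3% and 93.1%) and Ifne lower (100% and 52.7%). These genes are short, with a median of 0.664 kb, so an edge of a peak moves the share far. Of 28 interferon-stimulated genes 22 had no peak, Xaf1 (9.0%) and Cxcl10 (10.3%) were covered in the mutant alone, and Slfn5 had 14.3% in WT and 69.0% in the mutant.

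Cytokine and chemokine genes were covered more in the mutant. Of 38, 16 were covered in both, 6 in the mutant alone (3.66% of all genes) and 0 in WT alone (1.14% of all genes). Of the 16, 8 were at least 10 points higher, against 27.2% of all genes covered in both, with a median difference of 6.74 points against 3.0 for all genes. Cxcl12, a chemokine of stromal cells, had 41.1% and 85.2%, and Cxcl1, a neutrophil attractant, 68.6% and 100%. Mutant-only members were the growth factor Il3 (82.1%), the macrophage chemokines Ccl3 (55.1%) and Ccl4 (9.3%), Il1a (25.4%), Il4 (11.3%) and the alarmin Il33 (2.3%). In Il3, Ccl3, Ccl4 and Il1a the covered length was 846 to 2690 bp and the strongest fold 2.26 to 2.27. The bodies of Ccl3 and Ccl4 overlap and their strongest fold was the same, so 1 peak may count for both. The largest differences downward were small, in Ccl22 (14.1% and 9.2%) and Tgfb3 (9.4% and 5.5%). The lists were also brought to equal covered length, described below, by removing mutant peaks alone. Such a removal cannot add mutant-only genes or take away WT-only genes. Then 0 of 38 members were mutant-only and 8 WT-only, against 144 and 1216 of 20665 genes. Another 8 were then covered in both, and 5 of these were at least 10 points higher, against 740 of 5515 genes.

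Lineage genes were mostly covered in both lists or in neither, as were most of all genes (3.66% mutant-only and 1.14% WT-only). Among 29 genes of B cell identity and signalling, only Ciita was covered, over 1.7% in WT and 2.6% in the mutant. Of 29 T and innate lymphoid genes the same 16 were covered in both lists. Of these, 4 (25%) were at least 10 points higher, against 27.2% of all genes covered in both. Cd4 had 39.5% and 52.4% and the T-bet gene Tbx21 75.6% and 88.2%. Of 29 myeloid, erythroid and stem cell genes, 19 were covered in both and Fcgr1, at a skipped number, in WT alone. Of the 19, 3 (15.8%) were at least 10 points higher and 2 lower, against 27.2% and 1.52% of all genes covered in both. The neighbouring calprotectin genes went opposite ways: S100a9 had 24.6% and 64.8%, and S100a8 58.9% and 16.6%. Neutrophil elastase, Elane, had 30.1% and 2.5%. S100a9, S100a8 and Elane are short (3.09, 0.964 and 1.9 kb), so an edge of a peak moves the share far. The covered length in WT and mutant was 760 and 2005 bp for S100a9, 568 and 160 bp for S100a8, and 573 and 47 bp for Elane. Among 18 plasma cell and germinal centre genes, 7 were covered in both, and 1 of these was at least 10 points higher. The plasma cell factor Prdm1, which touched a skipped number, had 17.7% and 27.6%. Mybl1 and Gcsam were mutant-only, over under 2% of their bodies each.

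Most Hox and other homeobox genes were covered in full in both genotypes, so their shares were already at the upper bound. All 39 Hox genes were covered in both, 34 in full, and the Hoxa cluster went from 81.1% in WT to 96.3% in the mutant, Hoxb from 89.5 to 98.7% and Hoxd from 99.1 to 100%, with Hoxc at 100% in both. The 5 Hox genes at least 10 points higher included Hoxa5 (11.0% and 73.1%) and Hoxa4 (49.6% and 100%). Of 94 homeobox genes outside the clusters 67 were full in both and 11 were at least 10 points higher, led by Meox1 and Nkx6-3, and the WT-only Nkx2-6 lay at mutant skipped numbers. Other factor families differed in this. Tissue-specific bHLH and forkhead genes covered in both had a median share of 100% in both lists. Of these, 26 of 39 and 19 of 28 were full in both, so the upper bound limits their rises too. The median share was 71.8% in WT and 97.2% in the mutant for Sox and T-box genes. For Pax and Gata genes it was 56.3% and 66.7%. Of 29 Sox and T-box genes covered in both, 12 were full in both and 7 (24.1%, against 27.2% of all genes covered in both) were at least 10 points higher, among them T, the mesoderm factor brachyury, at 50.1% and 100%. The counts were 7 of 39 tissue-specific bHLH genes (17.9%) and 6 of 13 Pax and Gata genes (46.2%), led by Pax4 (13.7% and 66.7%). Of 28 forkhead genes covered in both, Foxi1 was higher (7.4% and 66.2%) and Foxj1 lower (81.7% and 71.5%), and 11 of 40 forkhead genes had no peak. Of 7 cyclin-dependent kinase inhibitor genes 4 were covered in both, 3 of them in full. None of the 11 covered Polycomb genes of 31 was 10 points higher or lower, with Cbx7 at 31.9% and 40.4%.

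Signalling genes were covered in part in both genotypes, and only the Wnt list had a share of higher genes above that of all genes. Of 54 Wnt ligand, receptor and antagonist genes 52 were covered in both, 20 of them (38.5%) at least 10 points higher against 27.2% of all genes covered in both, with a median difference of 4.83 points. Wnt10b had 38.2% and 80.0% and the co-receptor Ryk 17.2% and 49.0%, while Wnt10a was lower, at 73.5% and 57.8%. At equal covered length 17 of 51 Wnt genes covered in both were still at least 10 points higher and 1 lower. Over all genes covered in both these counts were 740 and 223 of 5515. Among 65 FGF, BMP, Hedgehog and Notch genes, 60 were covered in both and 15 (25%) were higher, led by Fgf9 (27.2% and 59.2%), and Gdf5 was lower (45.9% and 32.3%). Of 60 axon guidance genes covered in both, 8 (13.3%) were higher, Neo1 and the semaphorin gene Sema3f (36.5% and 70.3%) most, and the roundabout gene Robo4 and Sema3b were mutant-only. Of 57 neuronal channel and receptor genes covered in both, 9 (15.8%) were higher, led by the nicotinic receptor gene Chrna3 (15.8% and 67.8%). These genes are long, with a median of 183 kb, and their median share was 1.72% in WT and 2.78% in the mutant.

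Keratin genes were covered more often than all genes and receptor genes of smell and pheromones less often, and the covered members of these families differed by large shares. Of 49 keratin genes, 24 were covered in both, 7 in the mutant alone and 2 in WT alone, and 16 of the 24 (66.7%, against 27.2% of all genes covered in both) were at least 10 points higher, with a median of 14.9 points. Keratin coverage was 53.1% of genes in WT and 63.3% in the mutant, against 32.6% and 35.1% of all genes. Krt27, of the hair follicle, had 47.1% and 100%, and Krt20, of the gut, 2.2% and 53.9%. Of 1100 olfactory receptor genes 1008 had no peak, 48 were covered in both, 37 in the mutant alone and 7 in WT alone, and the median of the 48 was 52.8% in WT and 89.4% in the mutant. Olfr225 had the lowest difference of all genes covered in both, with 98.3% in WT and 25.4% in the mutant. Of 352 vomeronasal receptor genes, 11 were covered in both and 6 in the mutant alone. Among all genes 3.66% were covered in the mutant alone and 1.14% in WT alone. The olfactory and vomeronasal receptor genes are short, with medians of 0.95 and 0.96 kb, so an edge of a peak moves the share far. At equal covered length the split of these families turned as it did for all genes (1216 WT-only and 144 mutant-only of 20665). Removing mutant peaks alone can shift the split in that direction only. Of the 1100 olfactory receptor genes 35 were WT-only and 3 mutant-only, and of the 49 keratin genes 9 were WT-only and 0 mutant-only.

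Of 36 imprinted genes 24 were covered in both, 3 in the mutant alone and 1 in WT alone, against 3.66% and 1.14% of all genes. Of the 24, 3 (12.5%) were at least 10 points higher, led by Slc22a18 (27.7% and 60.1%), against 27.2% of all genes covered in both. Several lists lay near the 27.2% of all genes covered in both: of 148 solute carrier genes covered in both 37 (25%) were higher, of 56 zinc finger genes named Zfp 16 (28.6%) and of 34 clustered protocadherins 8 (23.5%). The share was 21.4% for cadherins (3 of 14). It was far lower for collagen and matrix genes (1 of 37, 2.70%) and adhesion receptor genes (1 of 20, 5%). Ribosomal protein genes were nearly free of the mark, with 76 of 79 uncovered in both lists.

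**Figure D4:**
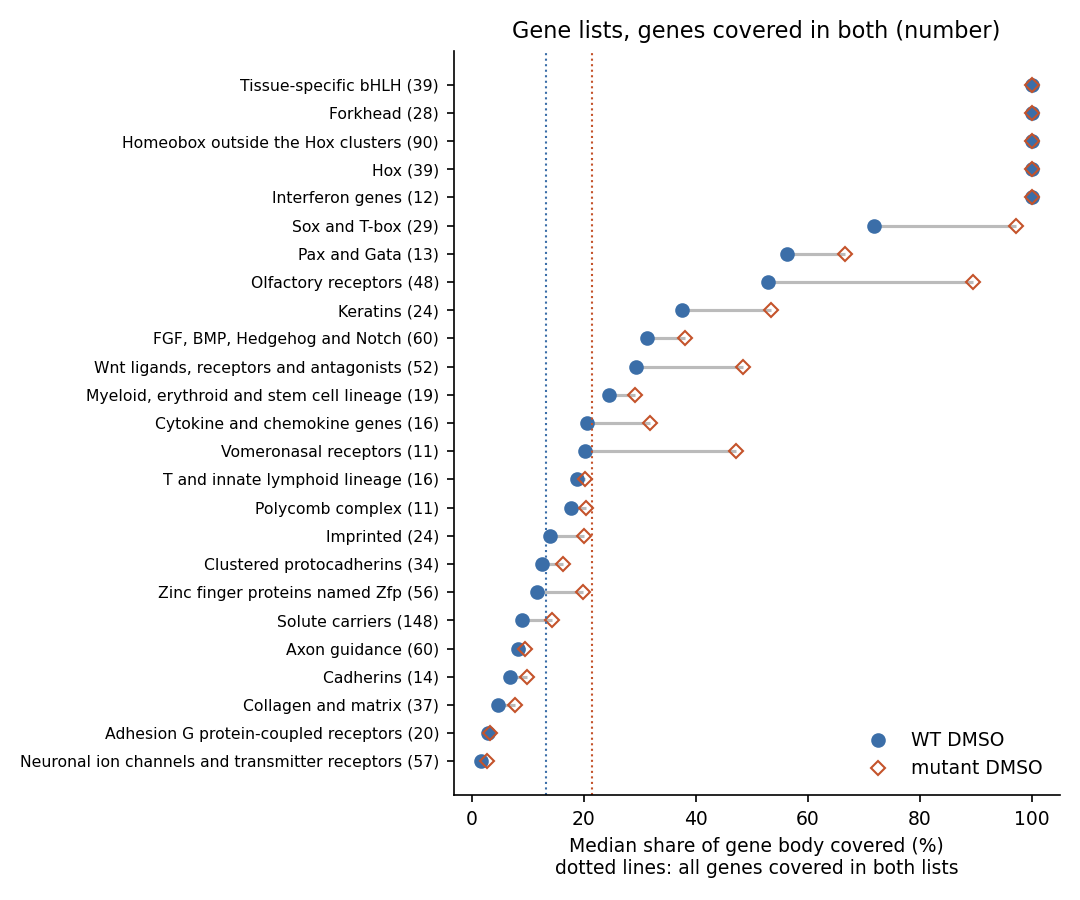
Median share of the gene body covered (horizontal axis, %) in WT DMSO (filled circles) and mutant DMSO (open diamonds) for the lists with more than 10 genes covered in both; the number of those genes is in brackets and the dotted lines are the medians of all genes covered in both, 13.3% and 21.4%. Hox, other homeobox, forkhead, bHLH and interferon genes sit at 100% in both lists, and olfactory receptor genes are farthest apart.

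The larger extent in the mutant was spread over all chromosomes. The ratio of covered length ran from 1.44 on chromosome 15 to 1.73 on chromosome 6, and 2001 of 2091 windows of 1 Mb with any coverage (95.7%) had more in the mutant, by a median of 14.4 kb. The largest difference upward was on chromosome 9 in the window that holds Neo1, Stra6, Loxl1 and Cyp11a1, from 236 to 418 kb. The next were on chromosome 11 around the stress hormone receptor gene Crhr1, from 173 to 335 kb, and on chromosome 2 around Myo3b and the GABA enzyme gene Gad1, from 206 to 361 kb. The largest difference downward was in the window of Zic2 and Zic5, from 85.2 to 45.7 kb, where both lists skip peak numbers. With none skipped, the window chr8:12000001-13000000 went from 138 to 118 kb, and that of Klf4, with a smaller difference, from 38.1 to 21.9 kb. Within 1 Mb of the mutated genes the covered length was also higher in the mutant, with 50.9 and 71.2 kb around Ifih1, 28.9 and 45.3 kb around Ddx58, and 113 and 186 kb around Cgas. Gcg and Aqp7 there were WT-only, over 15.7% and 2.12%, and Cilk1 mutant-only, over 0.53%.

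The GSK343 lists, which the grouping did not use, seldom covered genes marked in 1 genotype, though more often than genes marked in neither. Genes covered in both DMSO lists were covered in 69.8% of cases in WT GSK343 and 65.8% in mutant GSK343. For genes covered in neither DMSO list these shares were 0.129% and 0.0835%. Of the mutant-only genes, 13 (1.72%, Wilson interval 1.01 to 2.92%) were covered in WT GSK343 and 10 (1.32%, 0.719 to 2.41%) in mutant GSK343. Of the WT-only genes the counts were 27 (11.5%, 8.02 to 16.2%) and 19 (8.09%, 5.24 to 12.3%), and of these 20 and 18 touched mutant skipped numbers. Of the genes at least 10 points higher, 66.2% were covered in WT GSK343 and 62.0% in mutant GSK343, against 71.7% and 68.0% of genes that differed by less. Of the 99 genes at least 10 points lower, 42.4% and 32.3% were covered.

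The order of mutant-only and WT-only genes turned when the mutant list was limited by covered length, and not when it was limited to the number of WT peaks (594 mutant-only, 312 WT-only). When the mutant list was limited to its strongest 12716 peaks by p-value, to match the 83.9 Mb of WT, with all 39233 WT peaks kept, 144 genes were mutant-only and 1216 WT-only. The median difference of genes covered in both was then 0.346 points, with 740 genes at least 10 points higher and 223 lower, so that higher shares made up 76.8% of such calls against 94.7% before. The 740 were all among the 1764, since removing mutant peaks can only lower a mutant share. For the same reason no gene could become mutant-only and no WT-only gene could leave its class. In this step 613 mutant-only genes lost all coverage and 981 genes covered in both became WT-only. The direction of that shift was therefore fixed by the procedure, and only its size was not. The mutant-only genes with the most covered bases were then A2ml1 (6183 bp), Hrh3, Itpr2, Srarp (3434 bp) and Hif1a, the oxygen-sensing factor, with 2913 bp over 6.30% of its body. The WT-only genes were led by Gm8909, Pcca, Dnajc5b, Cgn and Nipal1, of which Dnajc5b and Nipal1 had 28578 and 18773 bp covered in the full mutant list. Limiting both lists to their strongest 40 Mb, an alternative added after the data were seen, gave 90 mutant-only and 965 WT-only genes.

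**Figure D5:**
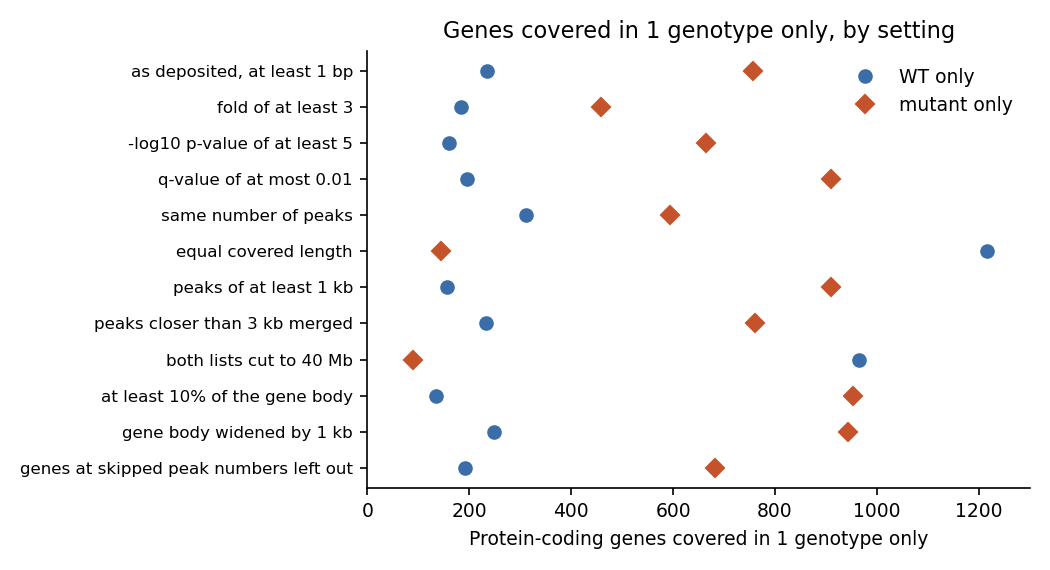
Number of protein-coding genes covered in WT only (circles) and in mutant only (diamonds) on the horizontal axis, for the lists as deposited and for 11 other settings on the vertical axis. Mutant-only genes outnumber WT-only genes, 757 to 235 as deposited, except with equal covered length (144 and 1216) and with both lists limited to 40 Mb (90 and 965).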

How the data were processed

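The study profiled H3K27me3 by ChIP-seq with input samples, and 4 lists of broad peaks, 1 per genotype and treatment, were used. Per the submitters' processing notes, Bowtie2 2.4.2, SAMtools 1.12, MACS2 2.2.7.1, bedtools 2.29.2 and deepTools 3.5.1 were used with build mm10, and the settings are not given in the sources used here. The authors' deposited columns hold a score, the fold of each peak over background (a linear ratio), and the −log10 of its p-value and q-value. File names refer to removal of blacklisted peaks. Pooling of the replicates is read from a folder name in the deposited peak names.

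Peaks on chromosomes 1 to 19 were intersected with gene bodies of protein-coding genes from RefSeq GRCm38.p6, counting from 1. A gene was covered with at least 1 base. Shares have 95% Wilson intervals, which cover counting error only, since genes and neighbouring peaks are not independent. No test was possible with 1 list per group. Promoter sequences came from the RefSeq promoter table. Computation used Python 3.11.15, matplotlib 3.10.9, scipy 1.17.1, pandas 2.3.3 and numpy 2.4.6, and the overlap code was checked on simulated data and against bedtools 2.31.1.

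The members and the 32 gene lists were chosen with earlier results of these data known. The list of histone genes matched 0 genes and gave no value. Named genes were the 10 with the most covered bases in each class of 1 genotype only, and, among genes of at least 5 kb covered in both, the 10 largest rises and falls of covered share. Further names were up to 2 rises and 2 falls per list with members in 1 genotype only, 5 genes per class at equal covered length, Ifih1, Ddx58, Cgas, Ezh2 and the Hox clusters. Names outside this rule were chosen after their values were seen, including the genes at skipped peak numbers and the genes of the named 1 Mb windows. Repeats were not analysed here, and a few genes that the rule names are not reported here.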

Additional observations from a re-analysis of the deposited data

Results flagged for a closer look

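The difference between the genotypes had the opposite direction under GSK343. Covered length on chromosomes 1 to 19, mutant over WT, was 1.58 under DMSO and 0.800 under GSK343, where the lists covered 21.0 Mb in WT and 16.8 Mb in the mutant. Under GSK343 310 genes were covered in the mutant only and 584 in WT only, against 757 and 235 under DMSO, and the median difference of genes covered in both was −0.31 points against 3.0. There was 1 list per group, so whether the treatments differ in this was not tested.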

How the results depend on the processing

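No paired analysis was possible because there is 1 peak list for each group, and for the same reason no replicate could be left out. Over 12 alternative settings and 7 results, 45 of 76 values kept within 1.5 times the value as reported and 31 moved. The order of mutant-only and WT-only genes turned in the first 2 settings below. In the first of them only mutant peaks were removed, which can shift the counts in that direction only. The cause of the turn was not tested.

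At equal covered length, mutant-only genes numbered 144, WT-only genes 1216, the median difference was 0.346 points, genes at least 10 points higher 740 and lower 223, and mutant length outside WT peaks 22.7 Mb. With both lists limited to 40 Mb (added after the data were seen) there were 90 mutant-only, 965 WT-only and 3247 genes covered in both, a median of 0.533 points, 386 genes higher and 9.37 Mb outside. With a fold of at least 3 there were 459 mutant-only genes and 3853 covered in both, a median of 0.883 points, 579 higher, 36 lower and 17.9 Mb outside. Peaks whose −log10 p-value was 5 or more left 4284 genes covered in both, a median of 1.08 points, 755 higher, 35 lower and 25.6 Mb outside. Requiring 10% of the gene body gave 134 WT-only genes, 3562 covered in both and a median of 7.19 points. A change of 20 points was met by 778 genes higher and 44 lower. Genes at least 10 points lower numbered 54 with a q-value of at most 0.01, 64 with peaks of at least 1 kb and 158 with peaks closer than 3 kb merged.

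The same number of peaks (594 mutant-only, 312 WT-only) and a gene body widened by 1 kb (944 and 249) moved no result. Depth could not be equalised, because the lists hold no reads.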
